A study of Mus musculus with 8 samples.

Results

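The 5 FGF ligand genes Fgf4, Fgf5, Fgf8, Fgf15 and Fgf17 and the 4 FGF receptor genes Fgfr1, Fgfr2, Fgfr3 and Fgfr4 were followed across 8 Affymetrix Mouse 430 2.0 arrays of V6.5 mouse embryonic stem cells (ESCs). They were taken as every probe set whose only annotated gene symbol was one of these names, which gave 23 probe sets for 9 genes, of 34945 probe sets with 1 symbol. In all groups the cells' own Wdr5 mRNA was targeted by an shRNA, and human WDR5 linked to GFP was supplied by lentivirus under doxycycline control, with GFP-positive cells used. WDR5 is a WD-repeat subunit of the MLL complexes, which methylate lysine 4 of histone H3, and F266A is a substitution in its RNA-binding cleft. The groups were F266A -dox (mutant transgene, no doxycycline), F266A +dox (mutant transgene, 2 µg per mL doxycycline), WT -dox (wild-type transgene, no doxycycline) and WT +dox (wild-type transgene, 2 µg per mL doxycycline), each with 2 arrays described as biological duplicates. No group retained untouched endogenous Wdr5. Each transgene was studied as 1 line, so the mutation and other differences between the lines, such as the amount of WDR5 protein, cannot be told apart, and neither can withdrawal of the transgene and withdrawal of doxycycline itself.

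FGFs are secreted ligands that bind receptor tyrosine kinases together with heparan sulfate on the cell surface, and the activated receptors signal through FRS2 and RAS to the ERK kinases. In mouse ESCs, FGF4 is the main ligand made by the cells themselves, and FGF to ERK signalling prepares them to leave naive pluripotency. FGF5 is a classical marker of the epiblast after implantation, FGF8 and FGF17 belong to one ligand subfamily, FGF15 is the mouse counterpart of human FGF19, and FGFR1 is the main FGF receptor of the pluripotent epiblast.

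The values below are log2 RMA expression values. A probe set was treated as expressed when it exceeded 50 on the linear scale (5.64 on the log2 scale) in at least 1 array, which 14 of the 23 probe sets did, at least 1 for each of the 9 genes. The value of a gene is the mean of its passing probe sets, and a difference is called at an adjusted p under 0.05 by limma over all 11940 genes tested. Duplicates correlated at 0.997 to 0.998 and arrays of different groups at 0.985 to 0.996 (Pearson's r across probe sets), and array medians lay between 5.36 and 5.39. All 8 ESC markers listed for the check, among them Pou5f1, Sox2 and Nanog, exceeded 50 in every array. Wdr5 itself differed between the growth conditions: it was higher by 1.06 ± 0.07 (SE) in WT -dox than in WT +dox and higher by 0.71 ± 0.07 in F266A -dox than in F266A +dox. It was also higher by 0.24 ± 0.07 in F266A +dox than in WT +dox (adjusted p = 0.0249). Whether its probe sets also read the human transgene was not tested.

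The ligand genes moved in opposite directions. Fgf4 was lowest in F266A -dox and highest in WT +dox, while Fgf5 and Fgf8 were highest in F266A -dox and lowest in WT +dox. Fgf15 and Fgf17 were highest in WT -dox and lowest in WT +dox. Among receptors Fgfr1 and Fgfr2 followed the order of Fgf8, and the group means of Fgfr3 and Fgfr4 spanned only 0.20 and 0.08. These are bulk samples of sorted cells, so a change in the number of cells that express a gene and a change in the RNA per cell cannot be told apart.

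**Figure D1:**
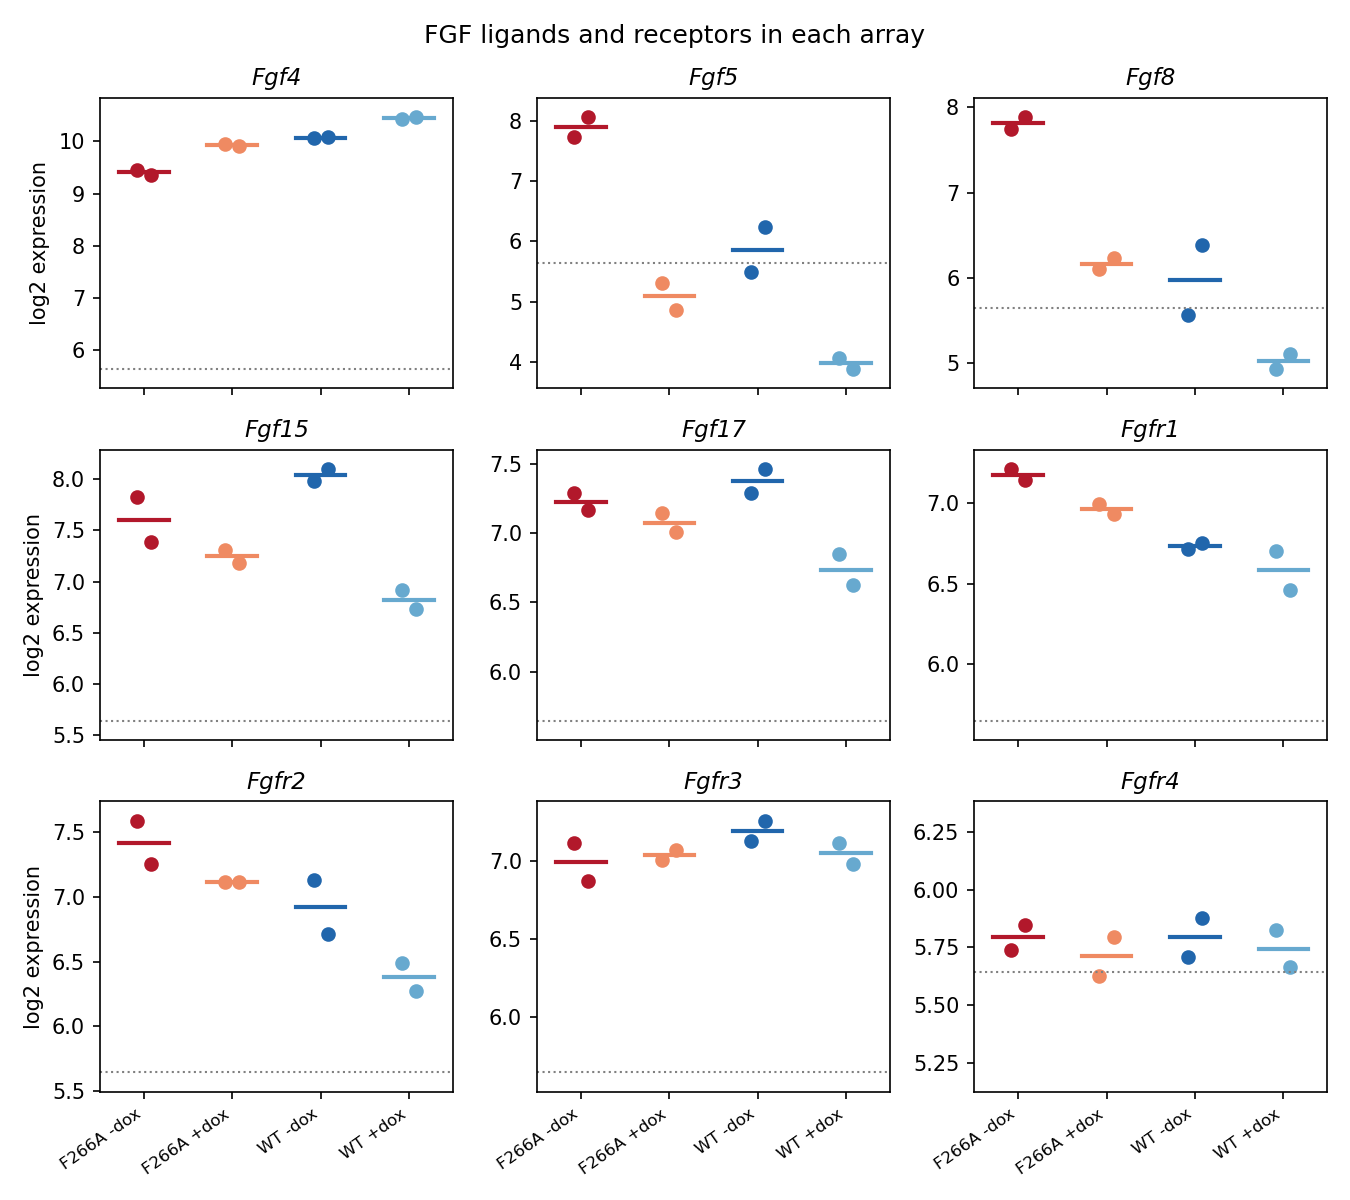
Log2 expression of each gene, with 1 point per array and a bar at the group mean, 2 arrays per group, on panels with separate vertical ranges. The dotted line marks the expression minimum of 5.64, above which all 8 Fgf4 values lie and under which both WT +dox values of Fgf5 and Fgf8 lie.

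Fgf4 lies on mouse chromosome 7 (GRCm38.p6, 144861386 to 144865245) and Fgf5 on chromosome 5 (98254184 to 98277033). The 250 bases upstream of these genes are shown because Fgf4 was the gene that fell in F266A +dox and Fgf5 had the widest range between groups. Both are on the plus strand of GRCm38.p6 and come from RefSeq, which gave windows for 5 of the 9 genes: chr7:144861136-144861385 for Fgf4 and chr5:98253934-98254183 for Fgf5. Capitals mark matches, on either strand, to a GC box (GGGCGG, or CCGCCC on the other strand), a TATA box (TATAAA or TATATA) or a CCAAT box (CCAAT, or ATTGG on the other strand).
Fgf4: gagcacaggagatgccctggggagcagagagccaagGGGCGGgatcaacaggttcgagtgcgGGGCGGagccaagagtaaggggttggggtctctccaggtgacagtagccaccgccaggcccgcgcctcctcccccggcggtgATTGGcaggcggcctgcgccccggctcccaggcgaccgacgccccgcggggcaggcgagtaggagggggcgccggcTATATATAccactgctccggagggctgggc
Fgf5: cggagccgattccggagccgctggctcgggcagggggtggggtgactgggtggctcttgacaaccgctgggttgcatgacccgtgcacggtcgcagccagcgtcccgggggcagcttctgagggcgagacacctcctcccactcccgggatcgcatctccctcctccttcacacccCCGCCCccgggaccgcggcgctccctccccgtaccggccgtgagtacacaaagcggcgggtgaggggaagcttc
The Fgf4 window held 2 GC boxes, 1 CCAAT box and 2 overlapping TATA matches close to the transcript start, and the Fgf5 window held 1 GC box and neither of the other motifs. Of 32851 windows of the same length, 32.7% held a GC box, 15.6% a TATA match and 33.8% a CCAAT match. Both windows were rich in CG dinucleotides, with 21 in Fgf4 and 24 in Fgf5 against a median of 6 over all windows. A match is a description of the letters and says nothing about binding of a factor in these cells.

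Fgf4, the ligand of undifferentiated ESCs, was lower in every other group than in WT +dox. Its values were 9.46 and 9.36 in F266A -dox, 9.95 and 9.92 in F266A +dox, 10.07 and 10.08 in WT -dox and 10.43 and 10.46 in WT +dox. No value overlapped between groups. Fgf4 fell by 0.51 ± 0.07 in F266A +dox relative to WT +dox (SE, adjusted p = 0.00053) and fell by 0.37 ± 0.07 in WT -dox relative to WT +dox (adjusted p = 0.0029). In the mutant line it fell by a further 0.53 ± 0.07 in F266A -dox relative to F266A +dox (adjusted p = 0.00129). Between the extremes, F266A -dox and WT +dox, the difference was -1.04 ± 0.07 (adjusted p = 2.55e-06), 2.05-fold lower in F266A -dox. F266A +dox and WT -dox, neighbours in the order, were not separated by the test (-0.14 ± 0.07, adjusted p = 0.21, 95% interval -0.29 to 0.01).

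Fgf4 had 4 probe sets, and each was lower in the same 5 of 6 pairwise comparisons when every probe set was tested without an expression filter. Of these, 1420085_at, 1420086_x_at and 1449729_at share the same source sequence in the annotation, so the 4 are not independent readings. The differences of the 4 probe sets in F266A -dox minus WT +dox were -1.01, -1.05, -1.07 and -1.05. The smallest signal came from 1449729_at, with 4.43 and 4.22 in F266A -dox, 4.91 and 4.70 in F266A +dox, 4.96 and 4.93 in WT -dox and 5.45 and 5.33 in WT +dox. It stayed under 50 in all 8 arrays and was left out of the gene value, but kept the order of groups of the 3 brighter probe sets.

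Fgf5 had the widest range, and its low values lay under the expression minimum. Probe set 1438883_at read 7.74 and 8.06 in F266A -dox, 5.31 and 4.86 in F266A +dox, 5.49 and 6.24 in WT -dox and 4.06 and 3.88 in WT +dox. Only 3 of 8 arrays exceeded 50, both of F266A -dox and 1 of WT -dox. F266A -dox stood apart from every other group, and F266A +dox and WT -dox were next to each other without overlap. Fgf5 was higher by 2.81 ± 0.23 in F266A -dox than in F266A +dox (adjusted p = 0.000244) and higher by 2.04 ± 0.23 in F266A -dox than in WT -dox (adjusted p = 0.000255). Set against the minimum in place of the unexpressed values, F266A -dox was at least 4.77-fold higher than F266A +dox or WT +dox. The difference between WT -dox and WT +dox was 1.89 ± 0.23 (adjusted p = 0.000371), a bound of at least 1.16-fold.

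In F266A +dox minus WT +dox the fitted difference of Fgf5 was 1.11 ± 0.23 (adjusted p = 0.00608), but all 4 arrays were under the minimum, so no fold is given. Without F266A +dox replicate 1 this difference was 0.89 and no longer called (adjusted p = 0.0646). The difference in F266A +dox minus WT -dox missed the threshold (-0.78 ± 0.23, adjusted p = 0.0534) and was called at -1.15 without WT -dox replicate 1 (adjusted p = 0.00894). The other Fgf5 probe set, 1426186_a_at, ran from 4.16 to 4.98 over the 8 arrays and was higher only in F266A -dox against WT +dox (0.57). Averaging it in, as a gene value without a filter does, reduced the Fgf5 difference between F266A -dox and F266A +dox to 1.60 and that between WT -dox and WT +dox to 1.05, both still called. The same average gave 0.66 in F266A +dox minus WT +dox, 1.21 in F266A -dox minus WT -dox and 2.25 in F266A -dox minus WT +dox.

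Fgf8, a ligand of the gastrulating embryo and of signalling centres in the early brain, was read by 1 probe set (1451882_a_at, chromosome 19, 45736491 to 45742941). Its values were 7.74 and 7.88 in F266A -dox, 6.10 and 6.23 in F266A +dox, 5.57 and 6.38 in WT -dox and 4.93 and 5.11 in WT +dox. WT -dox duplicates differed by more than those of any other group and enclosed both F266A +dox values, while F266A -dox lay above and WT +dox below all of them. Fgf8 was higher by 1.14 ± 0.21 in F266A +dox than in WT +dox (adjusted p = 0.00317), higher by 0.95 ± 0.21 in WT -dox than in WT +dox (adjusted p = 0.00746) and higher by 1.65 ± 0.21 in F266A -dox than in F266A +dox (adjusted p = 0.00129). Both WT +dox arrays were under the minimum. Against that minimum, Fgf8 was at least 4.49-fold higher in F266A -dox, at least 1.43-fold higher in F266A +dox and at least 1.26-fold higher in WT -dox. The WT -dox bound rests on 1 array above the minimum, replicate 2. Without that array the WT difference was 0.54, with WT -dox replicate 1 (5.57) and both WT +dox arrays under the minimum. The test did not separate F266A +dox from WT -dox (0.19 ± 0.21, adjusted p = 0.605, 95% interval -0.28 to 0.66), and the sign of that difference depended on which WT -dox array was kept (-0.22 without replicate 1, 0.60 without replicate 2, the second of which was called at adjusted p = 0.0139).

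Fgf15 lies 31.3 kb downstream of Fgf4 on chromosome 7 (144896532 to 144900953) with no other protein-coding gene between them. Relative to WT +dox, Fgf4 was lower and Fgf15 higher in every other group by the fitted difference, while both were lower in F266A -dox than in WT -dox. Fgf15 (1418376_at) read 7.82 and 7.38 in F266A -dox, 7.31 and 7.19 in F266A +dox, 7.98 and 8.10 in WT -dox and 6.92 and 6.74 in WT +dox. WT -dox lay above all other arrays and WT +dox below them. The largest of its pairwise differences was in the wild-type line, 1.21 ± 0.13 in WT -dox minus WT +dox (2.32-fold, adjusted p = 0.00021). In F266A +dox minus WT +dox it was 0.42 ± 0.13 (adjusted p = 0.04), a call lost when any of the 4 arrays was left out (0.33 to 0.51, adjusted p = 0.0596 to 0.199), or when no filter on expression was applied (adjusted p = 0.0675). In F266A -dox minus F266A +dox it was 0.36 ± 0.13 and not called (adjusted p = 0.0902), except without F266A -dox replicate 2 (0.58, adjusted p = 0.0131) and with a trended and robust prior for the variance (adjusted p = 0.0335).

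The withdrawal differences of Fgf15 in the lines were themselves compared. The difference in the F266A line minus that in the WT line was -0.86 ± 0.19 (adjusted p = 0.035), and Fgf15 was the 1 of the 9 genes called in this test, in which 5.15% of all genes were called. The call was kept without F266A -dox replicate 1 (-1.08, adjusted p = 0.00546) and missed the threshold in the other 7 fits that left out 1 array (-0.95 to -0.64, adjusted p = 0.052 to 0.135), and in the fit with no filter on expression (-0.86, adjusted p = 0.0627). In F266A +dox minus WT -dox, Fgf5 (-0.78, adjusted p = 0.0534), Fgf17 (-0.30, adjusted p = 0.0788) and Fgfr1 (0.23, adjusted p = 0.109) missed the threshold. Each of them was called under some of the alternative settings. Fgf15 was the 1 gene of the family called in that comparison in the main fit (-0.79 ± 0.13, adjusted p = 0.00467, 13.5% of all genes called). Its difference in F266A -dox minus WT -dox was -0.43 ± 0.13 (adjusted p = 0.0371), and ranged from -0.65 without F266A -dox replicate 1 to -0.21 without F266A -dox replicate 2, where it was not called (adjusted p = 0.213). That call was also lost without either WT -dox array (-0.49 and -0.37) and without either F266A +dox array (-0.43 in both fits, adjusted p = 0.0567 and 0.0568), with no filter on expression (adjusted p = 0.0613) and in a fit of these groups alone (adjusted p = 0.0785).

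Other genes of the neighbourhood showed no common direction. Ccnd1, which encodes cyclin D1 and stands also on the list of ERK targets, was higher by 0.71 ± 0.08 in F266A +dox than in WT +dox and higher by 0.83 ± 0.08 in WT -dox than in WT +dox. Its withdrawal differences also differed between the lines (-0.57 ± 0.11, adjusted p = 0.0229). Ano1, a chloride channel gene before Fgf3, was called in none of the comparisons, and its differences lay between -0.15 and 0.13. LTO1, the next gene after Fgf15, was also called in none, with differences between -0.06 and 0.06. Fgf3, the gene just before Fgf4, reached at most 5.39 and was not tested. The median difference of the 961 genes tested on chromosome 7 was 0.0041 in F266A +dox minus WT +dox and 0.0056 in WT -dox minus WT +dox.

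Fgf17 (chromosome 14, 70636203 to 70642268), a relative of Fgf8, resembled Fgf15 in its order with smaller differences. The mean of its 2 probe sets was 7.29 and 7.17 in F266A -dox, 7.15 and 7.01 in F266A +dox, 7.30 and 7.47 in WT -dox and 6.85 and 6.62 in WT +dox. WT +dox lay below all other arrays, F266A +dox came next, and WT -dox lay above both F266A groups. The test did not separate WT -dox from F266A -dox (0.15 ± 0.10, adjusted p = 0.303). Fgf17 was higher by 0.64 ± 0.10 in WT -dox than in WT +dox (adjusted p = 0.00138) and higher by 0.34 ± 0.10 in F266A +dox than in WT +dox (adjusted p = 0.0312). In F266A -dox minus F266A +dox it was 0.15 ± 0.10 (adjusted p = 0.322). The F266A +dox call was lost without WT +dox replicate 2 (0.23, adjusted p = 0.184), F266A +dox replicate 1 (0.27, adjusted p = 0.186) or F266A +dox replicate 2 (0.41, adjusted p = 0.0534) and, unfiltered, at 0.34 (adjusted p = 0.0549). It came mainly from probe set 1456239_at (0.50 ± 0.13), and the brighter 1421523_at gave 0.18 ± 0.10 and was not called (adjusted p = 0.318 over all probe sets).

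**Figure D2:**
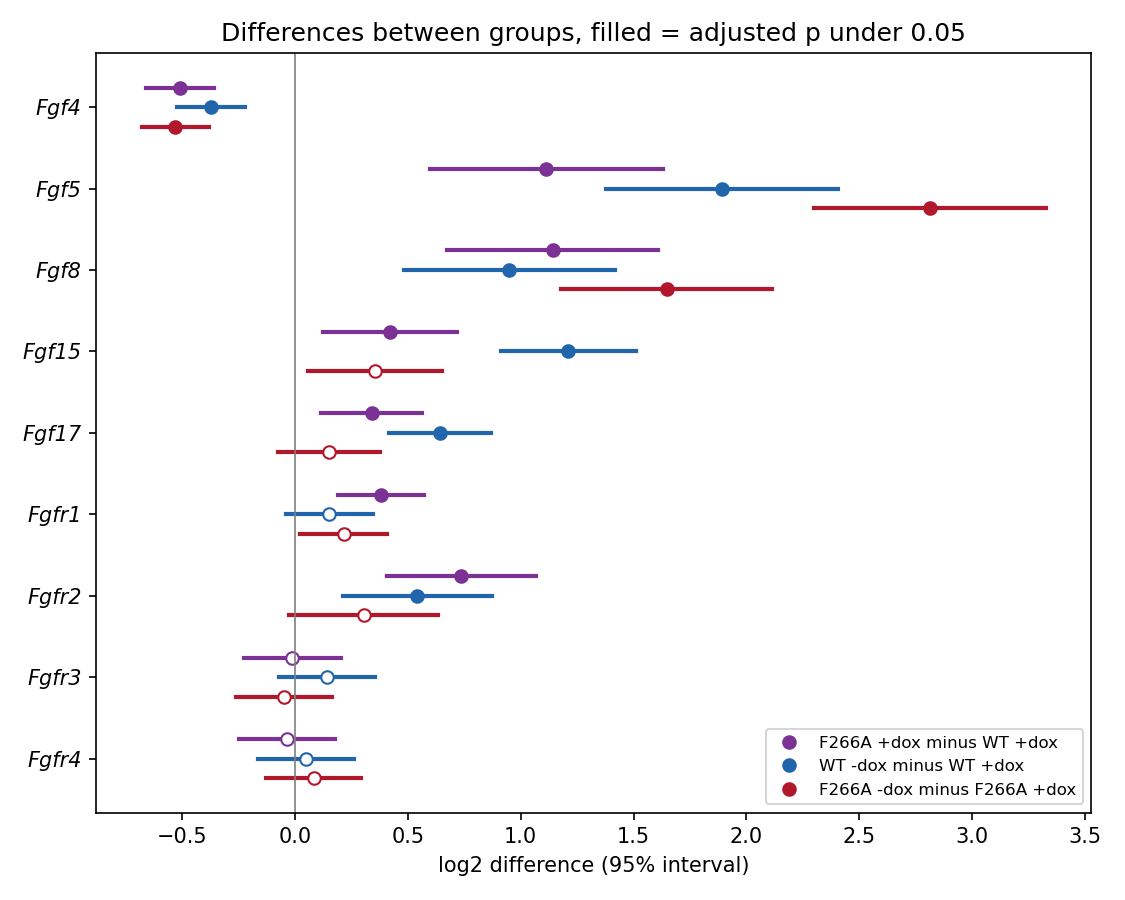
Log2 differences of each gene with 95% intervals in F266A +dox minus WT +dox, WT -dox minus WT +dox and F266A -dox minus F266A +dox, 2 arrays per group in one limma fit. Filled points passed the test, and Fgf4 is the 1 gene below 0 in all 3 comparisons. Fgf5 and Fgf8 are called above 0 in all 3, although all Fgf5 values in F266A +dox minus WT +dox lay under the minimum. Fgf15, Fgf17, Fgfr1 and Fgfr2 also lie above 0 in all 3 but are not called in F266A -dox minus F266A +dox.

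Fgfr1 (chromosome 8, 25518759 to 25575718) was higher in the mutant line than in the wild-type line in either condition. The mean of its 3 probe sets was 7.21 and 7.15 in F266A -dox, 6.99 and 6.93 in F266A +dox, 6.72 and 6.75 in WT -dox and 6.70 and 6.46 in WT +dox. Both F266A groups lay above all 4 WT arrays, and the WT groups lay close together. Fgfr1 was higher by 0.45 ± 0.09 in F266A -dox than in WT -dox (adjusted p = 0.00445) and higher by 0.38 ± 0.09 in F266A +dox than in WT +dox (adjusted p = 0.00913). Its F266A +dox call was lost when WT +dox replicate 2 (0.26, adjusted p = 0.0583) or F266A +dox replicate 1 (0.35, adjusted p = 0.068) was left out. Withdrawal within a line gave 0.22 ± 0.09 in the F266A line (adjusted p = 0.108) and 0.15 ± 0.09 in the WT line (adjusted p = 0.208), which was called at 0.27 without WT +dox replicate 1 (adjusted p = 0.0498).

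The brightest Fgfr1 probe set, 1424050_s_at, separated the groups without overlap, with 9.52 and 9.51 in F266A -dox, 9.27 and 9.23 in F266A +dox, 8.90 and 8.90 in WT -dox and 8.73 and 8.66 in WT +dox. On its own it was higher by 0.56 ± 0.08 in F266A +dox than in WT +dox and higher by 0.61 ± 0.08 in F266A -dox than in WT -dox. It also passed in F266A +dox minus WT -dox (0.35 ± 0.08, adjusted p = 0.0422). As the value of the gene, it was called on withdrawal in either line, at 0.26 in the F266A line (adjusted p = 0.0226) and 0.21 in the WT line (adjusted p = 0.0367). The dimmer probe sets 1425911_a_at and 1436551_at lay near the minimum and exceeded 50 in 4 and 7 of 8 arrays. Singly they were called neither in F266A +dox minus WT +dox (0.36 ± 0.17 and 0.23 ± 0.11) nor in F266A -dox minus WT -dox (0.47 ± 0.17 and 0.26 ± 0.11). The other genes of chromosome 8 were also examined. The median difference of its 652 genes tested was 0.15 in F266A -dox minus WT -dox and 0.09 in F266A +dox minus WT +dox, against -0.0089 and 0.0029 over all genes. It was 0.12 in F266A -dox minus F266A +dox and 0.20 in F266A -dox minus WT +dox, against -1e-04 and 0.0023. The part of this shift in the Fgfr1 differences was not tested.

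Fgfr2 (chromosome 7, 130162451 to 130266808), a receptor of primitive endoderm and trophectoderm in the blastocyst, was read above the minimum by 1 of 3 probe sets, 1433489_s_at. Its values were 7.59 and 7.25 in F266A -dox, 7.12 and 7.11 in F266A +dox, 7.13 and 6.72 in WT -dox and 6.49 and 6.27 in WT +dox. WT +dox lay below all other arrays, and WT -dox replicate 1 reached the level of F266A +dox. Fgfr2 was higher by 0.74 ± 0.15 in F266A +dox than in WT +dox (1.67-fold, adjusted p = 0.00518) and higher by 0.54 ± 0.15 in WT -dox than in WT +dox (adjusted p = 0.0199). The second call was lost without WT +dox replicate 2 (0.43, adjusted p = 0.115) or WT -dox replicate 1 (0.34, adjusted p = 0.134). In F266A -dox minus WT +dox it was 1.04 ± 0.15 (2.06-fold, adjusted p = 0.000309). Withdrawal in the mutant line gave 0.30 ± 0.15 and was not called (adjusted p = 0.178).

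The difference of Fgfr2 between the lines without doxycycline was 0.50 ± 0.15 (F266A -dox minus WT -dox, adjusted p = 0.0324). It was not called without WT -dox replicate 2 (0.29, adjusted p = 0.212), F266A -dox replicate 1 (0.33, adjusted p = 0.168) or either F266A +dox array (0.50, adjusted p = 0.0552 and 0.0553), nor in a fit of these groups alone (adjusted p = 0.0761). The other Fgfr2 probe sets stayed under 50 in all arrays and passed in no comparison. Averaged with them, Fgfr2 gave 0.23 in F266A +dox minus WT +dox (adjusted p = 0.107), 0.22 in WT -dox minus WT +dox (adjusted p = 0.117) and 0.17 in F266A -dox minus WT -dox (adjusted p = 0.221), none of them called, and 0.39 in F266A -dox minus WT +dox (adjusted p = 0.00561).

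Markers of the cell types in which FGF receptors are also prominent were examined beside these values. Of 9 primitive endoderm markers 5 exceeded 50 in any array, and Gata4, Sox17, Pdgfra and Sox7 did not. Sums of the linear signal took in all 9, also those under 50. They were 559 to 589 in F266A -dox and 726 to 750 in F266A +dox. In WT -dox they were 602 to 655 and in WT +dox 894 to 918. Single markers ran both ways, and in F266A -dox minus WT +dox 1 of the 5 was called higher, Dab2 (1.28 ± 0.16), and 1 lower, Lama1 (-1.97 ± 0.10). Over all genes, 25.9% were called higher and 25.0% lower in that comparison. Of 8 trophectoderm markers 5 exceeded 50, and Elf5, Gata3 and Tpbpa did not. Sums over all 8 were 1265 to 1366 in F266A -dox and 1230 to 1345 in F266A +dox. In WT -dox they were 1450 to 1454 and in WT +dox 1675 to 1822. Here too the sum and the single markers differed, with Cdx2 (0.99 ± 0.16), Eomes (0.37 ± 0.08) and Ascl2 (0.54 ± 0.09) called higher and Tfap2c (-0.77 ± 0.07) lower in F266A -dox minus WT +dox (25.9% and 25.0% of all genes). Both WT +dox values of Cdx2 (5.41 and 4.96) were under the minimum, so the size of its difference rests on unexpressed values. The part of these cell types in the Fgfr2 values was not tested. Of 10 fibroblast markers 1, Col1a2, exceeded 50.

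Fgfr3 (chromosome 5, 33721724 to 33737068) was measured well above the minimum and passed in no comparison. Its probe set 1421841_at read 7.12 and 6.87 in F266A -dox, 7.01 and 7.07 in F266A +dox, 7.13 and 7.26 in WT -dox and 7.12 and 6.98 in WT +dox. The other 3 groups overlapped, and WT -dox lay just above them. The difference in F266A +dox minus WT +dox was -0.01 ± 0.09 (95% interval -0.22 to 0.20) and that in F266A -dox minus F266A +dox was -0.05 ± 0.09 (-0.26 to 0.17). The widest, F266A -dox minus WT -dox, was -0.20 ± 0.09 (adjusted p = 0.149), which was called at -0.32 without F266A -dox replicate 1 (adjusted p = 0.0403).

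Fgfr4 (chromosome 13, 55152818 to 55168759) was near the expression minimum. Of its 5 probe sets only 1427846_x_at passed, with 5.74 and 5.85 in F266A -dox, 5.63 and 5.80 in F266A +dox, 5.71 and 5.88 in WT -dox and 5.82 and 5.67 in WT +dox. All groups overlapped, and the difference in F266A +dox minus WT +dox was -0.03 ± 0.09 (95% interval -0.24 to 0.18). Averaged over all 5 probe sets, without the filter, it was -0.26 and called (adjusted p = 0.049). A dimmer probe set, 1418596_at, which never exceeded 50, read 4.71 and 4.77 in F266A -dox, 4.86 and 4.82 in F266A +dox, 4.61 and 4.63 in WT -dox and 5.42 and 5.34 in WT +dox. It was lower than in WT +dox in each other group, by the test over all probe sets: -0.64 ± 0.08 in F266A -dox, -0.54 ± 0.08 in F266A +dox and -0.76 ± 0.08 in WT -dox. A further probe set under 50, 1427776_a_at, was also lower in F266A +dox than in WT +dox (-0.46 ± 0.11, adjusted p = 0.0213). The withdrawal differences of 1418596_at also differed between the lines (0.66 ± 0.11, adjusted p = 0.0398), in a test that called 0.670% of all probe sets. Whether these signals exceed background is not known, so they are given as values of the probe sets and not of the receptor.

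**Figure D3:**
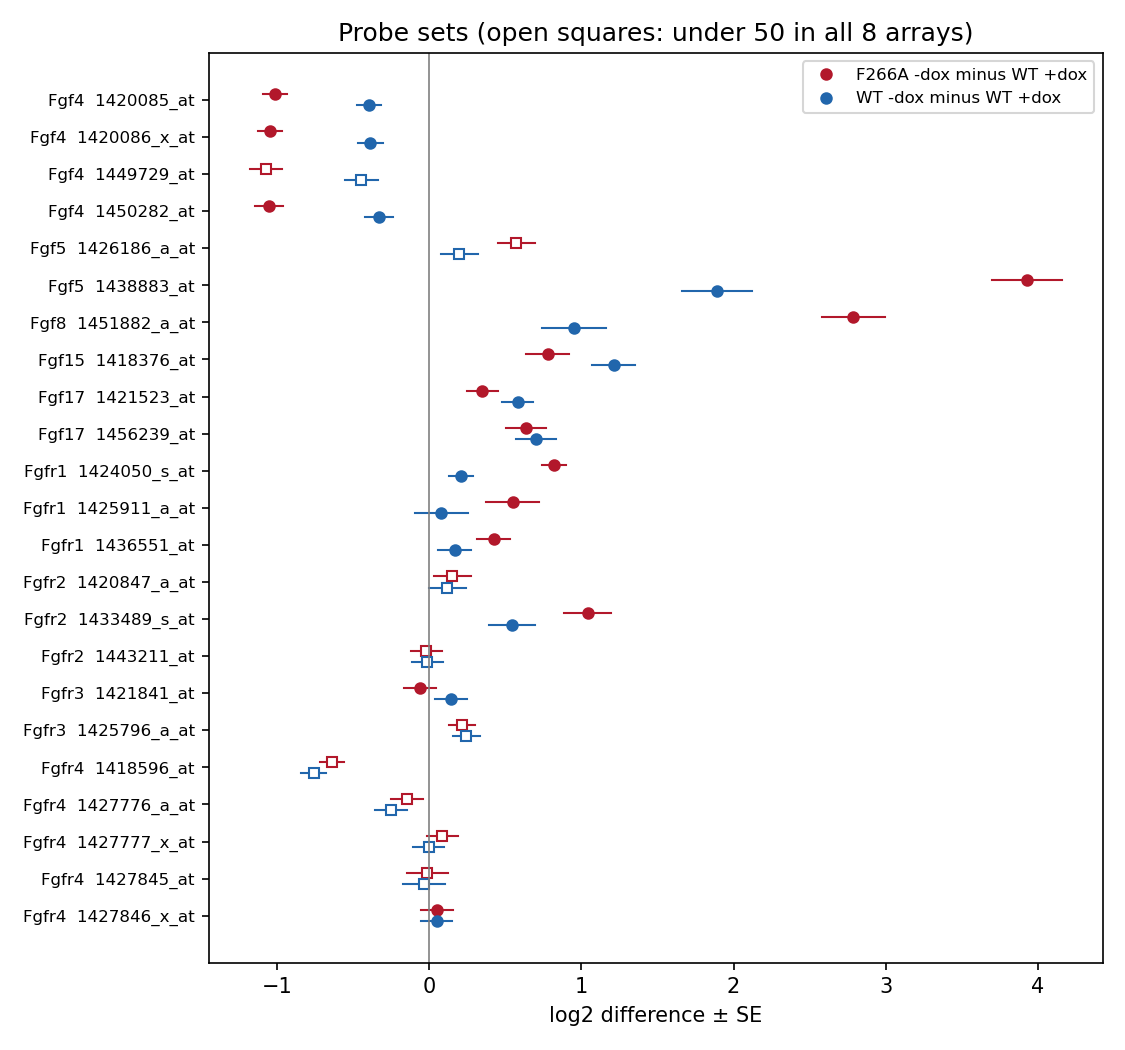
Log2 differences ± SE of all 23 probe sets in F266A -dox minus WT +dox and WT -dox minus WT +dox, which share the WT +dox arrays, from the fit without an expression filter. Open squares mark probe sets under 50 in all 8 arrays. The 4 Fgf4 probe sets lie below 0 together, and the Fgfr4 probe sets spread to both sides of 0.

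Counted over the family, 6 genes rose and 1, Fgf4, fell in F266A +dox relative to WT +dox, where 15.9% of all genes tested were called higher and 12.5% lower. Among the 6 was Fgf5, which lay under the minimum in all arrays of this comparison and passed the filter only through F266A -dox and WT -dox. The count was sensitive to single arrays, with 3 genes called when F266A +dox replicate 1 was left out, 4 when WT +dox replicate 2 was and 5 when F266A +dox replicate 2 was. The median difference of the 9 genes was 0.38, against 0.0029 over all genes. On withdrawal of the wild-type transgene (WT -dox minus WT +dox) 5 rose and 1 fell (16.1% of all genes called higher and 15.4% lower), with a median of 0.54 against 0.0037. These comparisons share the WT +dox arrays, so their resemblance is not independent. On withdrawal of the mutant (F266A -dox minus F266A +dox) 2 rose, Fgf5 and Fgf8, and 1 fell, Fgf4 (8.94% of all genes called higher and 10.6% lower), with a median of 0.22 against -1e-04.

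Differences of at least 2-fold were fewer. With the minimum in place of unexpressed values, Fgf15 passed that size in WT -dox minus WT +dox (0.737% of all genes called higher at that size by the fitted values), and Fgf5 and Fgf8 did in F266A -dox minus F266A +dox (0.293%). The bounds of Fgf8 in F266A +dox and of Fgf5 and Fgf8 in WT -dox, each against WT +dox, were under 2-fold. In F266A -dox minus WT -dox 4 genes rose (Fgf5, Fgf8, Fgfr1 and Fgfr2) and 2 fell (Fgf4 and Fgf15), with 14.0% of all genes called higher and 13.4% lower. In the widest comparison, F266A -dox minus WT +dox, 6 rose and 1 fell, while 25.9% of all genes were called higher and 25.0% lower. Over single probe sets without a filter, 5 of 23 were higher and 6 lower in F266A +dox minus WT +dox (6.39% and 4.98% of all probe sets), and 6 were higher and 5 lower in WT -dox minus WT +dox (6.36% and 6.31%). Of the lower ones in those comparisons, 4 belonged to Fgf4 and the rest to Fgfr4.

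**Figure D4:**
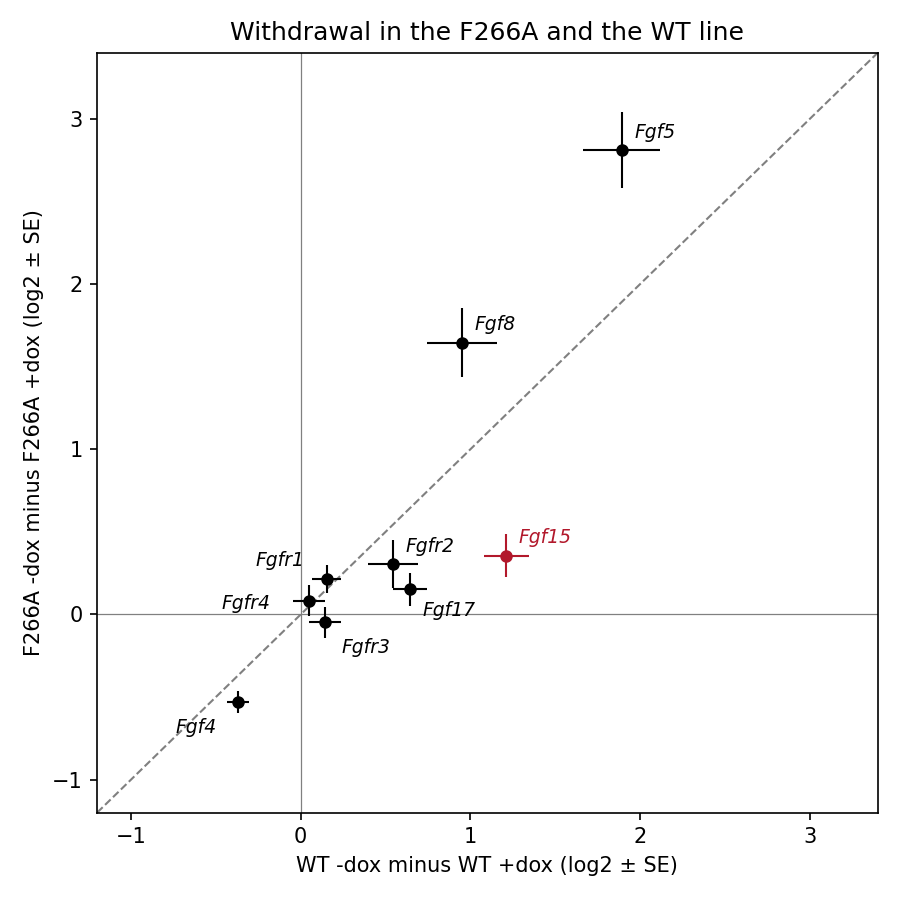
Log2 difference on withdrawal of doxycycline in the F266A line (vertical axis, F266A -dox minus F266A +dox) against that in the WT line (horizontal axis, WT -dox minus WT +dox) for each gene, ± SE, with the line of equality dashed. Fgf15, in red, lies below the line with -0.86 between the axes and is the 1 gene whose withdrawal differences were called different. Fgf5 and Fgf8 lie above it, by 0.92 and 0.70, and were not called, with both +dox groups of Fgf5 and WT +dox of Fgf8 under the minimum.

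For Fgf5 and Fgf8 the fitted withdrawal differences were also compared between the lines, although both +dox groups of Fgf5 and WT +dox of Fgf8 lay under the minimum, so that these sizes rest on unexpressed values. The difference between the lines did not pass the test for either gene. It was 0.92 ± 0.32 for Fgf5 (adjusted p = 0.138) and 0.70 ± 0.29 for Fgf8 (adjusted p = 0.213). WT -dox replicate 2 was above replicate 1 for both genes. Without replicate 2 the values were 1.30 for Fgf5 and 1.10 for Fgf8, and without replicate 1 they were 0.55 and 0.29. WT -dox replicate 1 was itself under the minimum for both genes. For Fgf17 the difference ran the other way and also missed the threshold (-0.49 ± 0.14, adjusted p = 0.0844).

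Genes with the pattern nearest to these were sought for the 5 genes whose group means ranged over at least 1, by the root mean square difference of the 8 centred array values over 11939 other genes. Nearest to Fgf4 were Acot1 (0.02), Cox7a1 (0.05) and Gm2137 (0.05). Acot1, an acyl-CoA thioesterase, averaged 7.72 in F266A -dox, 8.26 in F266A +dox, 8.36 in WT -dox and 8.74 in WT +dox. For Fgf5 the nearest were Cdh2 (0.45), which encodes N-cadherin, Prickle1 (0.53) and Fgf8 itself (0.56). Nearest to Fgf8 were Ms4a4d (0.27), Irgm1 (0.28) and Hmga2 (0.30), nearest to Fgf15 were Tcf15 (0.15), Actn3 (0.15) and Lgals9 (0.15), and nearest to Fgfr2 were Metrnl (0.12), Ino80e (0.13) and Gas8 (0.13). Tcf15, a basic helix-loop-helix transcription factor, averaged 9.34 in F266A -dox, 9.28 in F266A +dox, 9.80 in WT -dox and 8.60 in WT +dox.

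Most of the rest of the ligand family stayed under the expression minimum. Of 17 other FGF genes 15 stayed under 50 in all arrays, among them Fgf2 (at most 3.37), and Fgf13 and Fgf22 were tested. Fgf13, a member of the intracellular FGF-like proteins that bind sodium channels and are not secreted, read 8.01 and 7.99 in F266A -dox, 7.26 and 7.13 in F266A +dox, 6.96 and 6.98 in WT -dox and 6.41 and 6.67 in WT +dox. No group overlapped another. Fgf13 was higher by 0.65 ± 0.09 in F266A +dox than in WT +dox, by 0.42 ± 0.09 in WT -dox than in WT +dox and by 0.81 ± 0.09 in F266A -dox than in F266A +dox, all called. Fgf22 lay between 5.83 and 6.07 and was not called. The Klotho coreceptors Kl and Klb, of which the second serves FGF15, reached at most 4.29 and 4.87 and were not tested.

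Genes that set the access of ligands to their receptors changed in both directions. Of 15 tested genes of heparan sulfate synthesis, its core proteins and FGF carriers, 7 rose and 3 fell in F266A +dox relative to WT +dox (15.9% and 12.5% of all genes). In WT -dox relative to WT +dox 4 rose and 4 fell (16.1% and 15.4%), and in F266A -dox relative to F266A +dox 2 rose and 3 fell (8.94% and 10.6%). The median differences were 0.07, 0.0068 and 0.03. Fgfbp1, a carrier that releases FGFs from the matrix, read 8.94 and 9.02 in F266A -dox, 8.35 and 8.19 in F266A +dox, 7.37 and 7.16 in WT -dox and 6.58 and 5.96 in WT +dox. It was higher by 2.00 ± 0.17 in F266A +dox than in WT +dox (3.99-fold, adjusted p = 4.77e-05). Sulf1, a sulfatase that trims heparan sulfate at the cell surface, read 9.15 and 9.07 in F266A -dox, 8.53 and 8.48 in F266A +dox, 8.15 and 8.31 in WT -dox and 6.75 and 6.77 in WT +dox. It was higher by 1.75 ± 0.07 in F266A +dox and by 1.47 ± 0.07 in WT -dox than in WT +dox.

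In both genes no group overlapped another, and both were called in each withdrawal. The withdrawal difference of Sulf1 in the F266A line minus that in the WT line was -0.87 ± 0.10 (adjusted p = 0.00373). Gpc4, a glypican, was higher by 1.04 ± 0.08 in F266A +dox than in WT +dox, and Sdc4, a syndecan, fell by 0.47 ± 0.08 in the same comparison and fell by 0.86 ± 0.08 in WT -dox relative to WT +dox.

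Among intracellular components, of 9 tested adaptor genes 1 rose and 1 fell in F266A +dox relative to WT +dox, 1 rose and 2 fell in WT -dox relative to WT +dox and 1 fell in F266A -dox relative to F266A +dox. Over all genes, 15.9%, 16.1% and 8.94% were called higher and 12.5%, 15.4% and 10.6% lower in these comparisons. The gene that fell in all 3 was Frs3, an FRS2-family adaptor, by 0.38 ± 0.07, 0.53 ± 0.07 and 0.51 ± 0.07. Gab1 was the adaptor gene that rose in F266A +dox (0.28 ± 0.08), and in WT -dox relative to WT +dox Plcg1, a phospholipase C bound by the receptors, rose by 0.32 ± 0.07 and Sos2, a RAS exchange factor, fell by 0.43 ± 0.10. Of 7 tested genes of the RAS to ERK kinases (6 others had no probe set of their own symbol alone), Nras rose in WT -dox relative to WT +dox (0.24 ± 0.07), and limma called 0 in F266A +dox minus WT +dox and 0 in F266A -dox minus F266A +dox. At an unadjusted p under 0.05 there was 1 in each, Map2k1 (-0.20 ± 0.07) and Nras (0.19 ± 0.07).

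Of 16 tested feedback inhibitors and transcriptional targets of FGF and ERK signalling, 11 rose and 0 fell in F266A +dox relative to WT +dox (median 0.39, with 15.9% of all genes called higher and 12.5% lower). In WT -dox relative to WT +dox 10 rose and 0 fell (median 0.47, with 16.1% and 15.4% of all genes). At an unadjusted p under 0.05 limma also had 0 lower in either comparison. In F266A -dox relative to F266A +dox 4 rose and 1 fell (median 0.16, with 8.94% and 10.6% of all genes). Dusp6, an ERK phosphatase induced by ERK signalling, read 10.76 and 10.60 in F266A -dox, 10.23 and 10.15 in F266A +dox, 10.20 and 10.44 in WT -dox and 9.34 and 9.50 in WT +dox. WT +dox was below all other arrays. Dusp6 was higher by 0.77 ± 0.10 in F266A +dox and by 0.90 ± 0.10 in WT -dox than in WT +dox, and by 0.49 ± 0.10 in F266A -dox than in F266A +dox. Spry4, a Sprouty feedback inhibitor, rose in the same comparisons, by 0.37 ± 0.09, 0.86 ± 0.09 and 0.36 ± 0.09.

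Myc, which ERK and other pathways regulate, had the largest difference of the list in F266A +dox minus WT +dox, WT -dox minus WT +dox and F266A -dox minus F266A +dox. It read 8.97 and 8.84 in F266A -dox, 7.88 and 7.67 in F266A +dox, 8.47 and 8.41 in WT -dox and 5.84 and 6.09 in WT +dox, so that WT -dox lay above F266A +dox. Myc was higher by 1.81 ± 0.10 in F266A +dox and by 2.47 ± 0.10 in WT -dox than in WT +dox. Phlda1 and Ier3, both induced by ERK signalling, were higher by 1.25 ± 0.10 and 1.21 ± 0.11 in F266A +dox than in WT +dox, and Dusp4, a nuclear ERK phosphatase, was higher by 1.04 ± 0.11 in F266A -dox than in F266A +dox. The ETS factors Etv4 and Etv5 were higher by 0.42 ± 0.07 and 0.37 ± 0.08 in F266A +dox than in WT +dox, and neither was called in F266A -dox minus F266A +dox. Spry1, Spry2, Spred2, Il17rd and Fos were not called in F266A +dox minus WT +dox, with values of 0.06, 0.16, -0.12, 0.30 and -0.01.

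Withdrawal differences of this list also differed between the lines for 5 of the 16 genes, Myc, Egr1, Ier3, Ccnd1 and Etv4, each smaller in the mutant line (5.15% of all genes called in either direction). The values were -1.35 ± 0.14 for Myc and -0.95 ± 0.12 for Egr1, an immediate early gene, which fell by 0.34 ± 0.08 in F266A -dox relative to F266A +dox. The median over the list was -0.34, against -0.0087 over all genes.

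Markers of the pluripotent states were summed beside these genes. The summed linear signal of 8 ESC markers was 45866 to 48233 in F266A -dox, 54717 to 54926 in F266A +dox, 56744 to 57801 in WT -dox and 60748 to 60883 in WT +dox. Singly, 2 of the 8 were called lower in F266A +dox minus WT +dox (median -0.16, with 12.5% of all genes called lower). In WT -dox minus WT +dox 3 were called lower (median -0.01, with 15.4% of all genes). In F266A -dox minus WT +dox 6 were called lower (median -0.34, with 25.0% of all genes). The summed signal of 8 primed epiblast markers, among them Otx2, Dnmt3b and Pou3f1, was 6897 to 8438 in F266A -dox, 4475 to 4786 in F266A +dox, 5944 to 5972 in WT -dox and 2094 to 2298 in WT +dox. Of these, 6 were called higher in F266A +dox minus WT +dox, 7 in WT -dox minus WT +dox and 8 in F266A -dox minus WT +dox, with 15.9%, 16.1% and 25.9% of all genes. Both lists had all 8 markers above 50 in at least 1 array. Of 7 primitive streak and mesoderm markers 3 exceeded 50. Sums over all 7, those under 50 included, were 335 to 379 in F266A -dox and 274 to 310 in F266A +dox. In WT -dox they were 292 to 296 and in WT +dox 297 to 312. Of 7 neural markers 5 exceeded 50, with sums over all 7 of 867 to 902 in F266A -dox and 655 to 668 in F266A +dox. In WT -dox these sums were 690 to 720 and in WT +dox 538 to 582. The part of a changed mixture of cell states in the FGF differences was not tested.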

How the data were processed

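The authors measured total RNA with Affymetrix Mouse 430 2.0 arrays and summarised it by RMA (justRMA in R 2.11.1, as their processing notes give). They deposited log2 values for 45101 probe sets in 8 arrays, each mapped to a labelled sample. Probe sets with several symbols (932), none (9160) and controls (64) were left out, and the remaining 34945 were tested singly without a filter. For genes, as in the study's methods, probe sets whose linear value passed 50 in any array were averaged. The 4 group means were fitted to all 8 arrays by limma 3.58.1 (R 4.3.3), leaving 4 residual degrees of freedom, two-sided, with Benjamini-Hochberg adjustment over 11940 genes. The median SE of a difference was 0.08. Duplicates are called biologic, with no word on separate lines, so p-values measure the spread between these arrays, whose number limits the precision.

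The self-test on simulated arrays for F266A +dox minus WT +dox (11940 genes, 200 changed, 10 runs) recovered 69.5% of changes of 0.5, 95.8% of those of 1 and 100% of those of 2, and 3.98% of its calls were false. In the data 3384 genes were called in that comparison, so these shares may not hold for the reported tests. SAM, the study's test, was not run.

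All 9 genes and their probe sets were named. For genes with a range of group means of at least 1, the 3 most alike genes were added, and from each pathway list up to 3 called genes with the largest difference in each of 3 comparisons. Other genes named for their values fall outside that rule and were chosen after their values were seen. They are Fgf22, Kl, Klb, Fgf2, Fgf3, LTO1, Ano1, Ccnd1, Spry1, Spry2, Spry4, Spred2, Il17rd, Fos and Map2k1. Also among them are Etv4, Etv5, Egr1, Dab2, Lama1, Cdx2, Eomes, Ascl2 and Tfap2c. Members, lists and tests were chosen with earlier results of these data known. Coordinates and upstream windows are those of RefSeq for GRCm38.p6. The alternatives tried were no filter, 100 as the minimum, only the brightest probe set of a gene, quantile normalization, median centring, array weights, a trended robust prior, a block for the replicate number, fits of a contrast's groups alone and leaving out each array.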

Additional observations from a re-analysis of the deposited data

Results flagged for a closer look

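The withdrawal difference of Fgf15 was smaller in the F266A line than in the WT line, and the test of that difference passed the threshold (-0.86 ± 0.19 on the log2 scale, adjusted p = 0.035, 2 arrays per group). It rests on 1 probe set, 1418376_at, all of whose values exceeded 50. It passed in 1 of the 8 fits that left out an array and missed the threshold without the expression filter (adjusted p = 0.0627).

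The Fgfr4 probe set 1418596_at, which was under 50 in all 8 arrays, had a withdrawal difference of -0.10 ± 0.08 in the F266A line and -0.76 ± 0.08 in the WT line. The test of the difference between the lines, over all probe sets without a filter, gave 0.66 ± 0.11 (adjusted p = 0.0398). The Fgfr4 probe set above the minimum, 1427846_x_at, gave 0.03 ± 0.13 for the gene (adjusted p = 0.914).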

How the results depend on the processing

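Over the 63 member results (9 genes in 7 comparisons), 962 values under an alternative kept direction and side of the threshold, 38 lost a call, 25 gained one and 30 changed sign, none of these last in a result that had been called. Fgf4 kept its call under every alternative in the 5 comparisons in which it was called, as did Fgf8. The labels' replicate numbers gave no pairing common to all groups. Deviations from the group means of same-numbered arrays correlated at 0.16 in the F266A line and 0.13 in the WT line. Between the lines they correlated at -0.18 to -0.11. A block for the number cannot take up a pattern whose sign differs between the lines, and such a pattern was not tested. With the number as a block 7, 6, 3, 6, 7, 1 and 1 member genes were called in the 7 comparisons, and the counts over all genes were 3105, 3439, 2079, 2978, 5814, 1401 and 451, in the order F266A +dox minus WT +dox, WT -dox minus WT +dox, F266A -dox minus F266A +dox, F266A -dox minus WT -dox, F266A -dox minus WT +dox, F266A +dox minus WT -dox and the difference of withdrawals. It changed no call of a member.

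Counts moved by over 1.5 times in these cases, and the cause was not tested. Without a filter 1537 genes were called in F266A -dox minus F266A +dox, 1059 in F266A +dox minus WT -dox and 290 in the difference of withdrawals (0 of them members, of which 5 had an unadjusted p under 0.05 in limma), against 2333, 1611 and 615 with the filter, which tested fewer genes. The trended and robust prior called 1110 genes and 3 members in the last. In F266A +dox minus WT -dox, member calls went to 3 with a minimum of 100, the probe set of highest mean or the trended prior, and to 2 with quantile normalization, median centring, array weights or the groups alone. Leaving out 1 array gave 1931 to 3511 genes and 3 to 7 members in F266A +dox minus WT +dox, 2360 to 3918 genes in WT -dox minus WT +dox, 1009 to 2268 in F266A -dox minus F266A +dox, 1947 to 3227 in F266A -dox minus WT -dox, 633 to 1732 genes and 1 to 2 members in F266A +dox minus WT -dox, and 174 to 689 genes and 0 to 2 members in the difference of withdrawals.

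Signs changed without a filter for Fgfr3, to 0.0265 in F266A +dox minus WT +dox, 0.0533 in F266A -dox minus F266A +dox and 0.0798 in F266A -dox minus WT +dox, and for Fgfr4, to -0.199 in WT -dox minus WT +dox and -0.132 in F266A -dox minus WT +dox. In F266A -dox minus WT -dox Fgfr4 was -0.0138 with quantile normalization and -0.0115 with median centring. Leaving out 1 array moved Fgfr3 between -0.0776 and 0.0571 in F266A +dox minus WT +dox, -0.169 and 0.0753 in F266A -dox minus F266A +dox and -0.179 and 0.065 in F266A -dox minus WT +dox. It moved Fgfr4 between -0.118 and 0.0507 in F266A +dox minus WT +dox, -0.0365 and 0.135 in WT -dox minus WT +dox, -8e-04 and 0.168 in F266A -dox minus F266A +dox, -0.0853 and 0.0864 in F266A -dox minus WT -dox, -0.0294 and 0.129 in F266A -dox minus WT +dox, -0.169 and 0.0028 in F266A +dox minus WT -dox and -0.0516 and 0.12 in the difference of withdrawals. In F266A +dox minus WT -dox Fgf8 moved between -0.216 and 0.598 and Fgfr2 between -0.0134 and 0.401, and in the difference of withdrawals Fgfr1 moved between -0.0556 and 0.183. Low signal limits Fgf5, Fgf8, Fgfr4 and the dimmer Fgfr1 probe sets, whose values lay partly or nearly at the minimum.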
